A study of Homo sapiens with 12 samples.

Results

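To describe the net transcriptome of breast cancer cells that received both a miR-145-5p mimic and an siRNA against Argonaute 2 (AGO2), 6 of the 12 arrays of the series were compared: the 3 arrays labelled sirnaAGO2+mimic145 and the 3 labelled cntrl. The members were taken from the group label, and the arrays carry replicate numbers 1 to 3 in each group. All arrays hold RNA of MDA-MB-231, a triple-negative human breast carcinoma line with a mesenchymal appearance. The mimic (a Pre-miR-145-5p oligonucleotide, or its negative control) was transfected with a lipid reagent at 5 nM, and the Dicer-substrate siRNA against AGO2 (or its NC1 negative control) was transfected at 500 pM for 72 h. The labels call the cntrl treatment only a control, and do not say which control oligonucleotides the cntrl, mimic145 and sirnaAGO2 cells received. The remaining groups, mimic145 and sirnaAGO2, each with 3 arrays, received a single active oligonucleotide and are used below only to place the doubly treated state beside each treatment alone.

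MicroRNAs guide Argonaute proteins to partly complementary sites, mostly in the untranslated ends of messenger RNAs, where the complex recruits GW182 scaffold proteins and the enzymes that shorten the poly(A) tail and remove the cap. AGO2 is the human Argonaute that can also cut a perfectly paired target, and AGO1, AGO3 and AGO4 load many of the same microRNAs. miR-145-5p is known as a tumour-suppressive microRNA that lowers regulators of motility and growth. Its level was not measured on these arrays. The mature guide is printed because its seed is the part that selects targets. Its capitals mark the seed, bases 2 to 8 (RefSeq, GRCh38.p14, 1-based position chr5:149430661-149430683, plus strand).
hsa-miR-145-5p: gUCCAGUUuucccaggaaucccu
Of 2370 mature human microRNA names in the RefSeq table used, 1 has this seed, miR-145-5p itself.

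Expression was read as single-colour intensity on exon arrays and is given below as quantile-normalised log2 intensity, averaged over the probes of a gene, so a difference of 1 is a doubling of signal. Each of the 6 slides held 2 arrays of a shared replicate number: cntrl lay beside mimic145, and sirnaAGO2+mimic145 lay beside sirnaAGO2. No slide held both groups compared here and cntrl always lay on position 1 and sirnaAGO2+mimic145 on position 2 of a slide, so slide, position and treatment cannot be told apart in this comparison. The share of spots well above background ran from 60.5% to 77.3% over the 12 arrays, and no spot was saturated. The lowest share was that of sirnaAGO2+mimic145 replicate 2. Of 8 genes typical of this line all were measured and 7 did not pass the test, among them VIM, CD44, EGFR and AXL, while MMP14 differed by −0.41. Of 6 luminal breast genes, PGR and FOXA1 had no probe that passed the background filter, ERBB3 differed by −0.32, and ESR1, GATA3 and KRT19 were measured and did not pass the test. Among 7 markers of other cell types, CD14 (a monocyte receptor, 1 probe) read 1.33 higher, DCN (decorin, 2 probes) 0.32 higher, and LUM and PECAM1 (1 probe each) lower by the fit. LUM was not well above background on any sirnaAGO2+mimic145 array, which bounds its fall at no less than 1.47-fold. The part of these markers in the results was not tested. Nothing in the labels says that the replicates were separate cultures, so the p-values measure the spread between these arrays, which may be technical. In bulk RNA, fewer cells of a kind and less RNA per cell cannot be told apart.

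AGO2 mRNA was lower in doubly treated cells. On 19 probes it read 9.21, 9.14 and 9.01 in cntrl replicates 1 to 3 and 8.27, 8.35 and 8.41 in sirnaAGO2+mimic145, so that the groups did not overlap and all 3 replicate pairs fell. The mean fell by 0.78 ± 0.08 (SE, n = 3 a group; limma adjusted p = 0.000542), which left 58.3% of the cntrl signal. The exact two-sided permutation test of 3 arrays against 3 gave p = 0.1, the smallest it allows. Of the 19 probes 18 were lower and 1 was higher.

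The level after both treatments lay near that of silencing alone. With the mimic alone AGO2 read 9.44, 9.36 and 9.39, a little above cntrl, and with silencing alone 8.35, 8.44 and 8.42. The doubly treated arrays lay 1.06 below mimic145 (limma adjusted p = 0.000783) and 0.06 below sirnaAGO2 (adjusted p = 0.607), so the latter difference was within the spread. The difference from mimic145 passed in 7 of 10 alternatives, with an adjusted p of up to 0.0756 in the others. The other Argonautes did not pass the test. AGO1 was 0.05 higher (adjusted p = 0.564), AGO3 was 0.16 lower (adjusted p = 0.215) and AGO4 differed by 0.0050 (adjusted p = 0.971), each with overlapping groups. The sign of the AGO4 difference turned in several alternatives and carries no direction.

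**Figure D1:**
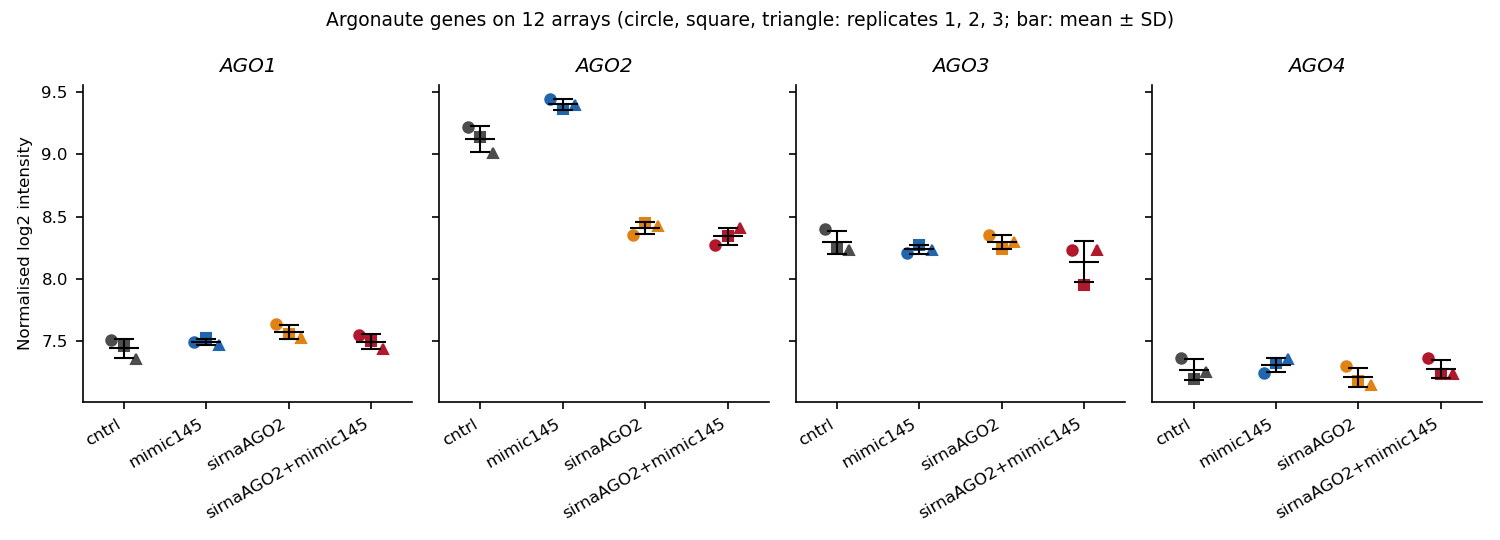
Normalised log2 intensity (y axis) of the 4 Argonaute genes on all 12 arrays, by group (x axis). Symbols are single arrays (circle, square and triangle for replicates 1, 2 and 3) and bars are the mean ± SD of 3 arrays. AGO2 is the gene in which sirnaAGO2+mimic145, at 8.27 to 8.41, lies apart from cntrl, at 9.01 to 9.21.

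Across the transcriptome, doubly treated cells differed from cntrl in many genes by modest amounts. Of 18253 genes tested, 3483 passed an adjusted p of 0.05 in limma (19.1%), with 1565 higher (8.57%) and 1918 lower (10.5%). Higher genes made up 44.9% of those past the threshold, and the lean to lower genes turned to 51.9% higher with 75th percentile scaling, 51.3% in the authors' log2 table, 51.6% with the median over probes and 58.5% (2516 of 4303) with probes above background on all arrays, so the split carries no direction. The median absolute difference of these genes was 0.42 on the log2 scale, 1246 differed by more than 0.5 and 170 by more than 1, of which 40 were higher and 130 lower. A probe could pass the background filter through 1 group alone. The split of the 170 was not recounted with probes above background on all arrays. The groups of 3 arrays did not overlap for 22.3% of genes. Genes named below for a large difference past the threshold tend to fall in this share by that choice, so their non-overlap is no separate support. The number of genes past the threshold depended on single arrays: it was 1861 without cntrl replicate 1, 2031 without cntrl replicate 3 and 1940 without sirnaAGO2+mimic145 replicate 3. It was 1031, 1360 and 715 without both groups' arrays of replicates 1, 2 and 3. All 20 genes described next passed in every limma alternative in which they were tested, and FSCN1 and SHOC1 were not tested with probes above background on all arrays.

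**Figure D2:**
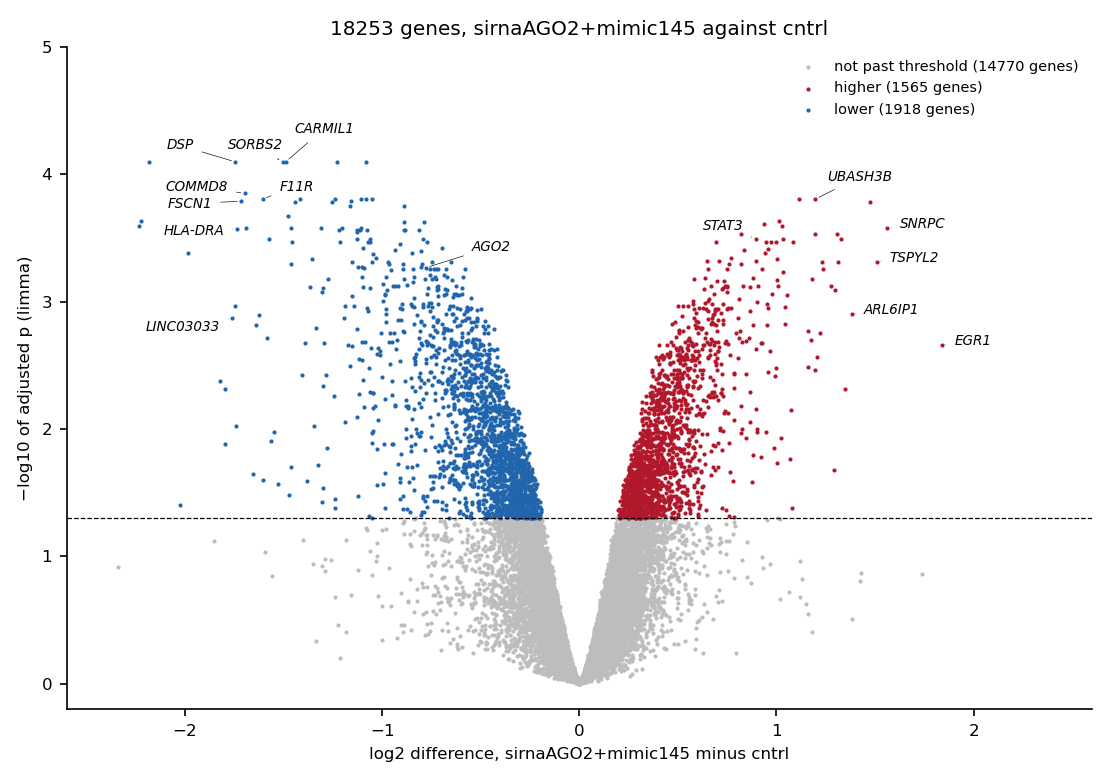
Log2 difference of sirnaAGO2+mimic145 from cntrl (x axis) against the negative log10 of limma's adjusted p (y axis) for 18253 genes, with 1565 higher genes in red, 1918 lower genes in blue and the dashed line at 0.05. Falls beyond 1 on the log2 scale number 130 and rises 40, with probes that could pass the background filter through 1 group alone.

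The 10 largest falls among genes on at least 3 probes ranged from −1.49 to −1.76 on the log2 scale. Their sizes depended on the processing. Over the alternatives the smallest was −0.87 for SORBS2, −0.93 for CARMIL1, −1.04 for F11R and −1.05 for FSCN1, against −1.34 for DSP and −1.56 for HLA-DRA. DSP (desmoplakin, which ties desmosomes to intermediate filaments) read 9.54, 9.06 and 9.41 in cntrl and 7.79, 7.31 and 7.67 after both treatments. Its difference was −1.74 ± 0.09 (SE; adjusted p = 7.99e-05), with all 25 probes lower and nearly the same fall in each pair. FSCN1 (fascin, an actin-bundling protein of filopodia and a known miR-145-5p target) read 7.89, 7.98 and 7.58 in cntrl against 6.06, 6.39 and 5.86, a difference of −1.71 ± 0.12 (adjusted p = 0.000163). All 7 of its probes were lower, and 4 of them were not well above background on any doubly treated array. The groups of both genes lay far apart.

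F11R (JAM-A, a tight-junction adhesion protein) read 8.51, 8.47 and 8.61 in cntrl against 7.16, 6.80 and 6.82, a difference of −1.61 ± 0.10 (adjusted p = 0.000156). CARMIL1 (a regulator of actin capping protein) fell by 1.49 ± 0.08 on 34 probes (adjusted p = 7.99e-05), from 8.12 to 8.33 in cntrl down to 6.67 to 6.91. SORBS2 (an adaptor of the actin cytoskeleton) fell by 1.50 ± 0.08 (adjusted p = 7.99e-05), and its doubly treated arrays were almost equal, at 6.53, 6.53 and 6.49. On SORBS2 and CARMIL1, 4 probes each were not well above background on any doubly treated array. These 3 genes fell in every pair, as their choice required, and no cntrl array came near a doubly treated one.

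COMMD8 (a subunit of the Commander complex in endosomal sorting) read 9.14, 9.20 and 8.87 in cntrl against 7.21, 7.65 and 7.26, a difference of −1.70 ± 0.10 (adjusted p = 0.000141). HLA-DRA (the alpha chain of the class II molecule HLA-DR) read 11.50, 10.94 and 11.21 against 9.97, 9.34 and 9.13, a difference of −1.74 ± 0.14 (adjusted p = 0.000268). PIGF (an enzyme of glycosylphosphatidylinositol anchor synthesis) fell by 1.57 ± 0.13 (adjusted p = 0.00032). The last 2 of the 10, the long noncoding RNA LINC03033 (−1.76 ± 0.22, adjusted p = 0.00135) and SHOC1 (a meiotic recombination gene, −1.75 ± 0.20, adjusted p = 0.00108), rested on 4 and 3 probes. For SHOC1 only 3 of 29 probes passed the background filter and 1 of these 3 was not well above background on any doubly treated array, and the difference ranged from −1.94 to −0.73 over the alternatives, with the smallest size without the filter on dim probes.

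The 10 largest rises among genes on at least 3 probes ran from 1.20 to 1.56. SNRPC (protein C of the U1 splicing particle) was the first of these, from 11.58, 12.10 and 11.98 in cntrl to 13.42, 13.58 and 13.34, a difference of 1.56 ± 0.12 (adjusted p = 0.000263). ARL6IP1 (which shapes endoplasmic reticulum membranes) went from 10.56, 11.12 and 11.23 to 12.49, 12.35 and 12.21, a difference of 1.38 ± 0.17 (adjusted p = 0.00125). WIPI1 (a phosphoinositide-binding protein of autophagosome formation) went from 8.43, 8.85 and 8.73 to 9.86, 9.99 and 10.07, a difference of 1.31 ± 0.11 (adjusted p = 0.000295). In all 3 genes, picked by size, the lowest doubly treated array lay above the highest cntrl array (22.3% of all genes did not overlap).

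ERO1B (an oxidase that forms disulfides in the endoplasmic reticulum) rose by 1.27 ± 0.14 (adjusted p = 0.000759) and SDF2L1 (a chaperone partner in the same compartment) by 1.21 ± 0.18 (adjusted p = 0.00271). TSPYL2 (a nucleosome assembly family protein) rose by 1.51 ± 0.14 (adjusted p = 0.000485), from 6.28 to 6.78 in cntrl up to 7.68 to 8.25. IL24 (a cytokine of the interleukin 10 family) rose by 1.30 ± 0.14 (adjusted p = 0.000803), but its doubly treated arrays spread from 7.87 to 9.13. RP2 (an activator of ARL3 GTP hydrolysis), SCML1 (a Polycomb-like protein) and UBASH3B (a tyrosine phosphatase) completed the set, with rises of 1.24, 1.23 and 1.20. Over the alternatives the smallest rise was 0.84 for ERO1B, 0.95 for IL24 and 0.96 for TSPYL2, against 1.33 for SNRPC.

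The same 20 genes were set against each treatment alone, to see which single treatment the net state resembled. The comparisons with cntrl share the cntrl arrays, so their differences are given side by side only. FSCN1 differed from cntrl by −2.16 with the mimic alone and by −0.18 with silencing alone, and the doubly treated arrays lay 1.53 below sirnaAGO2 (adjusted p = 0.00118) and 0.45 above mimic145 (adjusted p = 0.0676). SNRPC moved upward in the same pattern, 1.92 higher with the mimic alone and 0.01 higher with silencing alone, and after both treatments it lay 1.55 above sirnaAGO2 (adjusted p = 0.00124). COMMD8 lay with silencing: it differed from cntrl by 0.03 with the mimic alone and by −1.67 with silencing alone. Its doubly treated arrays lay 1.72 below mimic145 (adjusted p = 0.000543) and 0.03 below sirnaAGO2 (adjusted p = 0.897).

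DSP and CARMIL1 read below both single treatments, though these differences did not pass in all alternatives. DSP lay 0.56 below mimic145 (adjusted p = 0.0146) and 0.66 below sirnaAGO2 (adjusted p = 0.0092), with single-treatment differences of −1.18 and −1.08, and these passed in 6 and 7 of 10 alternatives (adjusted p up to 0.173 and 0.169). CARMIL1 lay 0.43 below mimic145 (adjusted p = 0.026) and 0.75 below sirnaAGO2 (adjusted p = 0.0049), which passed in 3 and 8 of 10 (adjusted p up to 0.187 and 0.149), so the difference from mimic145 is not a firm one. ARL6IP1 lay 0.82 above mimic145 (adjusted p = 0.0317, passed in 5 of 10), and its 0.46 over sirnaAGO2 missed the threshold (adjusted p = 0.115). For HLA-DRA, F11R and SORBS2 the difference from mimic145 was at most 0.03 in size and missed the threshold, while they lay 0.78, 0.92 and 0.59 below sirnaAGO2 (adjusted p = 0.0198, 0.00503 and 0.0106). The latter differences passed in 6, 8 and 7 of 10 alternatives.

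Across all genes, sirnaAGO2+mimic145 differed from mimic145 in 788 genes (4.32%; 1.87% higher and 2.44% lower) and from sirnaAGO2 in 1328 (7.28%; 4.25% higher and 3.03% lower). These counts were 0 to 12 and 0 to 384 when the arrays of a replicate number were left out, and the difference between the counts was not tested. In sirnaAGO2+mimic145 versus sirnaAGO2, 775 of the 1328 genes past the threshold were higher. The split leaned further upward, to 1919 higher of 2394, where arrays were scaled by their 75th percentile in place of quantile normalisation. A departure of the net difference from the sum of the single-treatment differences passed for 2 genes (0.011%), 1 in each direction (0.00548%), and 3061 had an unadjusted p under 0.05.

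**Figure D3:**
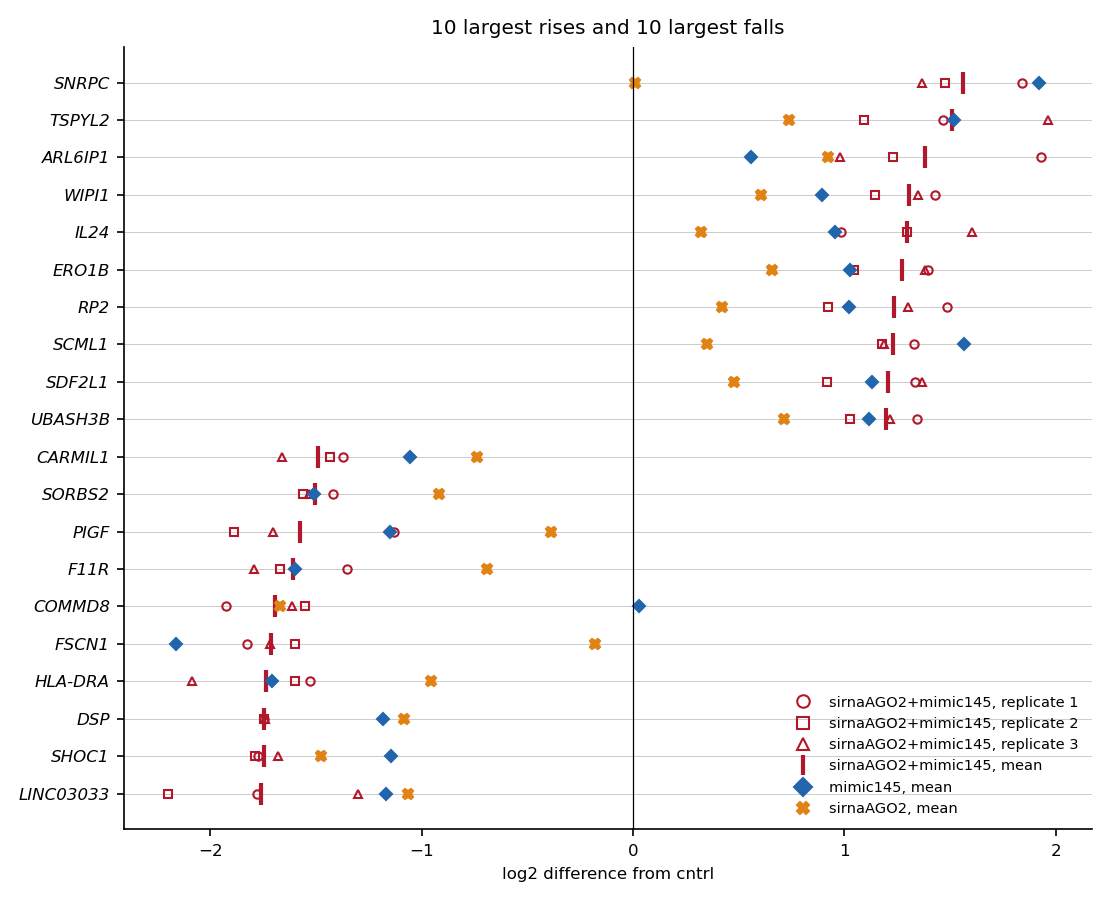
Log2 difference from cntrl (x axis) for the 10 largest rises and 10 largest falls (y axis). Red open symbols are the 3 replicate pairs of sirnaAGO2+mimic145, red ticks their mean, blue diamonds the mean of mimic145 and orange crosses the mean of sirnaAGO2. COMMD8 lies with silencing alone (−1.67), FSCN1 and SNRPC lie near the mimic alone (−2.16 and 1.92), and DSP lies beyond both (−1.18 and −1.08).

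Genes reported in the literature as miR-145-5p targets were often lower after both treatments. Of 46 measured, 18 fell, 2 rose and 26 did not pass, and their median difference was −0.24 against 0.01 for all genes (10.5% of which fell). Besides FSCN1 and F11R, the largest falls within this list of 46 were SWAP70 (an actin-binding exchange factor), from 9.23, 9.20 and 9.17 to 8.09, 7.95 and 7.81, and PPP3CA (the catalytic subunit of calcineurin), from 10.30, 10.21 and 10.22 to 9.13, 9.14 and 9.13. These differences were −1.25 ± 0.09 (adjusted p = 0.000165) and −1.11 ± 0.07 (adjusted p = 0.000157), with nearly identical arrays within each group for PPP3CA. Both lay near mimic145 (0.25 and 0.20 above it, adjusted p = 0.139 and 0.168) and far below sirnaAGO2 (1.28 and 0.80, adjusted p = 0.000768 and 0.00205).

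The 2 targets that rose were RPS6KB1 (the S6 ribosomal kinase, 0.36) and ZEB2 (a repressor of epithelial genes, 0.55), named because they complete the count. The number of fallen targets was 12, 14 and 8 without replicates 1, 2 and 3. Set against the single-treatment groups, 14 of the 46 were lower than in sirnaAGO2 and 0 higher, while 4 were higher and 1 was lower than in mimic145 (against 3.03% of all genes lower than in sirnaAGO2 and 1.87% higher than in mimic145).

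The study itself singled out 18 genes as lowered by the mimic on these arrays, so their direction is not independent evidence. Not all of them fell with the mimic alone in the present fit. PCDH1 read 0.65 above cntrl (limma adjusted p = 0.00973), and MAP3K4 (−0.0043) and ABCA11P (−0.18) did not pass. In the doubly treated cells 9 of the 18 fell (50%, against 10.5% of all genes), 0 rose (against 8.57%) and 9 did not pass, with a median of −0.41. Among the proliferation genes, MAP3K1 and MAP3K8 (kinases upstream of the JNK and ERK cascades) fell by 1.10 ± 0.15 (adjusted p = 0.00208) and 1.05 ± 0.10 (adjusted p = 0.000485). MAP3K1 had 3 of 20 probes and MAP3K8 1 of 6 that were not well above background on any doubly treated array. CDK6 (a G1 cyclin-dependent kinase, −0.30, adjusted p = 0.0504), CCNG1 (−0.15) and MAP3K4 (−0.13) did not pass. Of the motility genes, F11R and GOLM1 (a Golgi membrane protein, −0.65 ± 0.09, adjusted p = 0.00228) fell, and PCDH1 (a protocadherin) read 0.43 above cntrl (adjusted p = 0.0555).

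Of the ATP-binding cassette genes, ABCE1 (a ribosome-recycling factor) differed by −0.64 (adjusted p = 0.00664) and ABCB10 (a mitochondrial transporter) by −0.48 (adjusted p = 0.0089). The 18 probes of ABCE1 ranged from −4.12 to 0.37, and 1 was not well above background on any doubly treated array. Over the alternatives the smallest fall of ABCE1 was −0.35. ABCA1 (the cholesterol exporter) did not pass: its cntrl arrays read 8.58, 8.38 and 8.35 and its doubly treated arrays 8.63, 7.82 and 7.60, so replicate 1 showed no fall. ABCA11P and ABCD4 did not pass either. DECR1 (mitochondrial dienoyl-CoA reductase), GFM2 (a mitochondrial translation factor) and ETFB (electron transfer flavoprotein) fell by 0.52, 0.47 and 0.35 (adjusted p = 0.00261, 0.00685 and 0.0108). VDAC3 (an outer mitochondrial membrane channel) and DOCK9 (an exchange factor for CDC42) did not pass.

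Among these 18 genes DOCK9 showed the widest gap between the net state and the mimic alone. On 59 probes it read 9.25, 9.03 and 9.18 in cntrl and 9.36, 8.92 and 9.05 after both treatments, with overlapping groups (−0.04, adjusted p = 0.777), and it was 0.89 lower than cntrl with the mimic alone. It lay 0.85 above mimic145 (adjusted p = 0.00262). GOLM1, ETFB, DECR1, ABCA1 and ABCD4 also lay above mimic145, by 0.63, 0.57, 0.49, 0.61 and 0.35 (adjusted p = 0.0105, 0.0069, 0.0131, 0.046 and 0.0361). The differences of DOCK9, GOLM1, ETFB and DECR1 from mimic145 passed in 7 of 10 alternatives each, that of ABCA1 in 5 (adjusted p up to 0.324) and that of ABCD4 in 4 (adjusted p up to 0.276). Of the 18 genes, 6 were higher than in mimic145 (against 1.87% of all genes) and 10 lower than in sirnaAGO2 (against 3.03%). The study named them for a fall on the same mimic145 arrays. Tests against those arrays therefore lean upward and are not independent support. The count of 9 falls was 8, 6 and 2 without replicates 1, 2 and 3.

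**Figure D4:**
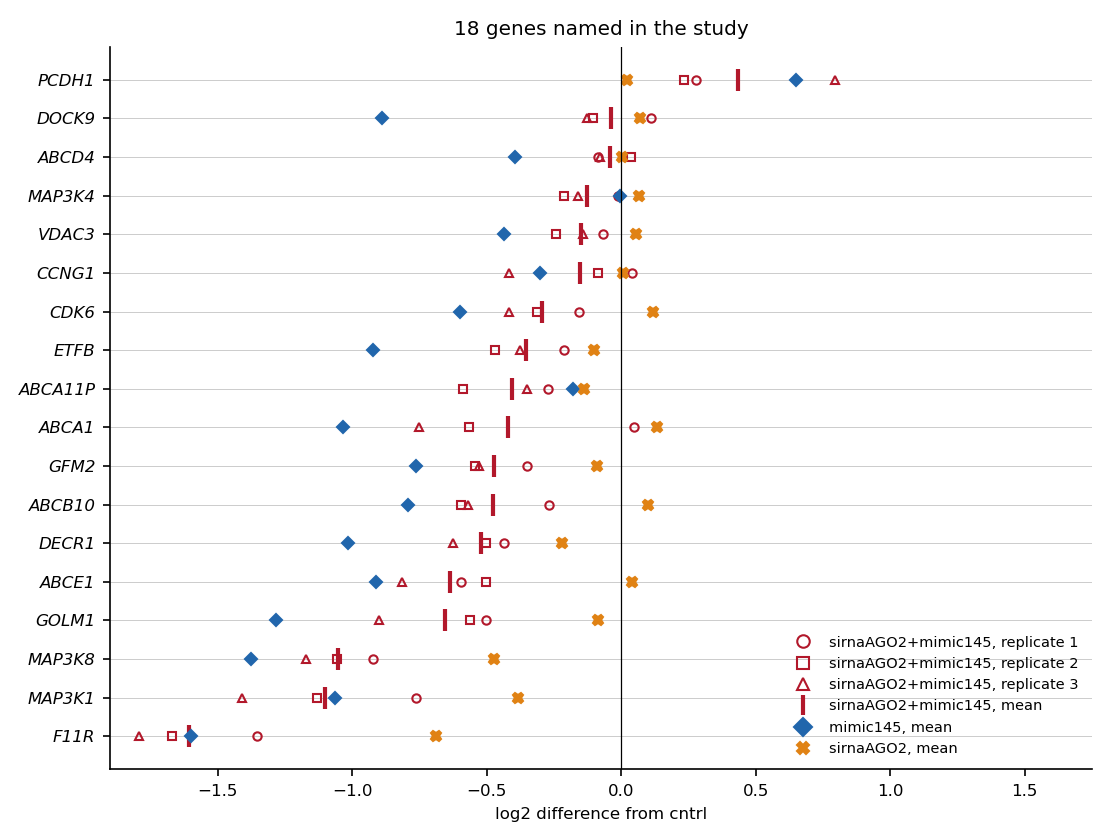
Log2 difference from cntrl (x axis) of the 18 genes named in the study (y axis), with red open symbols for the 3 replicate pairs of sirnaAGO2+mimic145, red ticks for their mean, blue diamonds for mimic145 and orange crosses for sirnaAGO2. DOCK9 lies at −0.04 after both treatments and at −0.89 with the mimic alone, whereas F11R lies at −1.61 and −1.60.

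Of 30 genes of the silencing complex, microRNA biogenesis and mRNA decay, 5 rose (16.7%, against 8.57% of all genes), 7 fell (23.3%, against 10.5%) and 18 did not pass. The falls include AGO2, at which the siRNA is directed, so its fall is not evidence about the rest of the list. All 3 GW182 scaffolds rose, TNRC6A, TNRC6B and TNRC6C by 0.35, 0.34 and 0.37 (adjusted p = 0.0167, 0.0195 and 0.011). DCP2 (the decapping enzyme) rose by 0.52 ± 0.09 (adjusted p = 0.00599) and DICER1 (which cuts microRNA precursors and Dicer-substrate siRNAs) by 0.32 (adjusted p = 0.0149). DROSHA (the nuclear microRNA-processing nuclease) fell by 0.44 ± 0.07 (adjusted p = 0.0037), from 9.14 to 9.30 in cntrl to 8.66 to 8.97. XRN1 (the exonuclease that degrades decapped mRNA) fell by 0.57 ± 0.11 (adjusted p = 0.0072).

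DCP2 lay 0.49 above mimic145 (adjusted p = 0.0243) and 0.04 above sirnaAGO2. DROSHA lay 0.47 below sirnaAGO2 (adjusted p = 0.0121). These differences of DCP2 from mimic145 and of DROSHA from sirnaAGO2 passed in 6 and 5 of 10 alternatives. The rest of the falls were PAN2 and CNOT2 (subunits of poly(A) nucleases) and DDX6 and PATL1 (decapping activators), by 0.39, 0.31, 0.28 and 0.24. The GW182 genes, DICER1 and these 4 genes were named after their values were seen. The rises did not hold with fewer arrays: their number was 0, 1 and 0 without replicates 1, 2 and 3, and 3 without cntrl replicate 1, cntrl replicate 3 or sirnaAGO2+mimic145 replicate 3. The 7 falls became 1, 2 and 2 without replicates 1, 2 and 3.

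Genes of the actin cytoskeleton were often lower. Of 63 measured, 19 fell (30.2%, against 10.5% of all genes), 6 rose and 38 did not pass, and 6 of the 12 genes of actin turnover were among the falls. After FSCN1 the largest was GMFB (glia maturation factor beta, which debranches actin networks), which read 10.01, 9.61 and 10.24 in cntrl against 8.38, 8.29 and 8.82, a difference of −1.46 ± 0.13 (adjusted p = 0.000339). It lay 1.33 below sirnaAGO2 (adjusted p = 0.00226) and 0.47 above mimic145 (adjusted p = 0.0731). TPM1 (tropomyosin 1) and MYH9 (nonmuscle myosin IIA) differed by −0.84 ± 0.09 (adjusted p = 0.000698) and −0.79 ± 0.10 (adjusted p = 0.00153), and neither was distinguished from either single treatment. The falls numbered 8, 9 and 6 without replicates 1, 2 and 3, and 11, 11 and 12 without cntrl replicate 1, cntrl replicate 3 and sirnaAGO2+mimic145 replicate 3.

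Of 71 cell adhesion genes measured, 13 fell (18.3%, against 10.5% of all genes), 11 rose (15.5%, against 8.57%) and 47 did not pass, with 4 falls and 1 rise among 16 integrins, 2 falls among 8 laminins, and 2 of each among 13 cadherins. DSG2 (a desmosomal cadherin that binds to the DSP plaque) fell by 1.10 ± 0.12 (adjusted p = 0.000772), from 8.77, 8.25 and 8.92 to 7.88, 7.27 and 7.50. SDC4 (a heparan sulfate proteoglycan of focal adhesions) fell by 1.05 ± 0.15 (adjusted p = 0.00231). ITGA6 (the integrin alpha 6 laminin receptor) rose by 0.94 ± 0.09 (adjusted p = 0.000415), from 10.20, 10.37 and 10.19 to 11.40, 11.13 and 11.05. With F11R, DSG2 and SDC4 below cntrl and ITGA6 above it, the 4 largest changes of the list did not share a direction. In all 4 the groups of arrays did not overlap (22.3% of all genes), which the choice by size favours. The 13 falls became 5, 6 and 6 and the 11 rises 4, 4 and 5 without replicates 1, 2 and 3. Leaving out any of cntrl replicates 1 and 3 and sirnaAGO2+mimic145 replicates 2 and 3 gave 6 to 8 falls, and without sirnaAGO2+mimic145 replicate 3 the rises numbered 6.

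Among 36 genes of epithelial and mesenchymal states, 8 fell (22.2%, against 10.5% of all genes) and 4 rose (11.1%, against 8.57%). The mesenchymal matrix genes TGFBI and THBS1 (thrombospondin 1) fell by 0.96 ± 0.13 (adjusted p = 0.00177) and 0.95 ± 0.13 (adjusted p = 0.00208), and SNAI2 (the repressor SLUG) by 0.95 ± 0.16 (adjusted p = 0.00541). CCN2 (connective tissue growth factor) rose by 0.77 ± 0.09 (adjusted p = 0.00112), from 8.62 to 9.08 in cntrl to 9.48 to 9.82. By role, 3 of 9 epithelial genes fell and 0 rose, and of 18 mesenchymal genes 4 fell and 3 rose. Of 29 proteases and inhibitors of invasion, 8 fell (27.6%) and 2 rose (6.90%), against the same shares of all genes. ADAM17 and ADAM10 (membrane sheddases), CTSD (cathepsin D) and MMP14 (a membrane collagenase) differed by −0.66, −0.45, −0.50 and −0.41 (adjusted p = 0.0152, 0.0125, 0.011 and 0.0125), while MMP1 (1 probe) read 1.08 higher with overlapping groups (adjusted p = 0.0415). The protease falls became 1, 2 and 0 without replicates 1, 2 and 3, and 4 or 5 without any of cntrl replicates 1 to 3 or sirnaAGO2+mimic145 replicate 3. The 8 epithelial and mesenchymal falls became 5, 5 and 3 without replicates 1, 2 and 3, and 5 without cntrl replicate 3 or sirnaAGO2+mimic145 replicate 3.

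Genes of the unfolded protein response were often higher and in no case lower by the test. When misfolded proteins build up in the endoplasmic reticulum, ATF6, IRE1 with XBP1, and PERK with ATF4 induce chaperones, degradation factors and amino acid metabolism. Of 43 such genes measured, 19 rose (44.2%, against 8.57% of all genes), 0 fell and 24 did not pass, and the median difference was 0.26 against 0.01 for all genes. DNAJB9 (an endoplasmic reticulum cochaperone) went from 9.07, 8.96 and 9.56 to 10.11, 10.14 and 10.94, a difference of 1.20 ± 0.18 (adjusted p = 0.00342). HERPUD1 (a factor of endoplasmic reticulum degradation) went from 9.95, 9.95 and 10.17 to 11.06, 10.58 and 11.29, a difference of 0.95 ± 0.12 (adjusted p = 0.00152). DDIT3 (the stress transcription factor CHOP) rose by 0.97 ± 0.14 (adjusted p = 0.00244). In these genes, picked by size, and in SDF2L1 each doubly treated array lay above all cntrl arrays (22.3% of all genes did not overlap).

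The rises were spread over both branches of the list, 12 of 27 genes of the ATF4 branch and 7 of 16 of folding and the endoplasmic reticulum. DNAJB9, HERPUD1, DDIT3 and SDF2L1 lay within 0.18 of mimic145 in either direction (adjusted p from 0.573 to 0.843) and 0.60 to 0.78 above sirnaAGO2 (adjusted p from 0.0217 to 0.0436). The differences from sirnaAGO2 passed in 7 of 10 alternatives for DNAJB9 and in 6 each for HERPUD1, DDIT3 and SDF2L1 (adjusted p up to 0.259). The 19 rises became 8, 17 and 10 without replicates 1, 2 and 3. ATF3 (−0.24) and NUPR1 (−0.35), stress genes of the same list, did not pass and read below cntrl.

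Chaperone promoters of this response are known to carry the endoplasmic reticulum stress element, and the 16 genes of folding were searched for it in the 300 bases around their RefSeq start sites (250 before and 50 after, GRCh38.p14, both strands). The letters searched were CCAAT and CCACG with any 9 bases between them, 19 bases in all. All 16 genes had a promoter in the table and 6 held the element, against 27 of 35116 promoters in all (0.0769%). Among the 6, HSPA5, XBP1 and CRELD2 rose, and CANX, CALR and HSP90B1 did not pass the test (0.02, 0.03 and 0.16 above cntrl), so the element stood on both sides of the threshold. The sites are printed on the strand of the gene, 30 bases each, with the element in capitals, which reads as its reverse complement in CRELD2 and CALR. HSP90B1 holds 2 matches, of which the farther one is shown.
HSPA5 (chr9:125241385-125241414, minus strand): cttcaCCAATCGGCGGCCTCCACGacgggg
XBP1 (chr22:28800597-28800626, minus strand): gctggCCAATCGCGGAGGGCCACGaccgta
CRELD2 (chr22:49918549-49918578, plus strand): cctctCGTGGCGAACTCGGATTGGgccata
CANX (chr5:179698773-179698802, plus strand): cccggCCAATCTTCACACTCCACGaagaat
CALR (chr19:12938379-12938408, plus strand): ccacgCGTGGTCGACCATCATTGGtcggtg
HSP90B1 (chr12:103930211-103930240, plus strand): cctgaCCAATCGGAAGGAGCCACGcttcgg
HSPA5 (the chaperone BiP) rose by 0.90 ± 0.10 (adjusted p = 0.00101), CRELD2 by 0.81 (adjusted p = 0.00194) and XBP1 by 0.58 (adjusted p = 0.00271). These 6 genes were named for the element after their values were seen.

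Several cholesterol genes rose by small amounts. Of 31 genes of synthesis, uptake and transport, 13 rose (41.9%, against 8.57% of all genes), 0 fell and 18 did not pass, with 9 rises among the 20 enzymes of synthesis. NPC1 (which exports cholesterol from lysosomes) went from 9.42, 9.70 and 9.72 to 10.00, 10.18 and 10.17, a difference of 0.50 ± 0.07 (adjusted p = 0.00171). NSDHL and IDI1 (enzymes of the sterol pathway) and STARD4 (a sterol carrier) rose by 0.46, 0.43 and 0.42 (adjusted p = 0.00208, 0.0208 and 0.0424). None of the 4 was distinguished from mimic145. The 13 rises became 1, 3 and 3 without replicates 1, 2 and 3. Of the 6 single arrays, only cntrl replicate 2 could be left out with the count above 8.

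Several interferon-stimulated genes were higher. Of 44 genes of interferon response and double-stranded RNA sensing, 14 rose (31.8%, against 8.57% of all genes), 4 fell (9.09%, against 10.5%) and 26 did not pass. ISG15 (a ubiquitin-like modifier, 2 probes) went from 12.61, 12.29 and 12.18 to 13.52, 12.88 and 13.67, a difference of 1.00 ± 0.15 (adjusted p = 0.0033). IFIT1 and IFIT2 (antiviral RNA-binding proteins, 1 probe each) rose by 1.16 ± 0.15 (adjusted p = 0.00169) and 1.22 ± 0.16 (adjusted p = 0.00177). In these 3 genes, picked by size, the groups did not overlap (22.3% of all genes did not) and all pairs rose. They lay 0.61 to 1.09 above sirnaAGO2 (adjusted p from 0.0122 to 0.0471) and were not distinguished from mimic145. The differences of ISG15, IFIT1 and IFIT2 from sirnaAGO2 passed in 4, 6 and 8 of 10 alternatives.

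TLR3 (the endosomal sensor of double-stranded RNA, 2 probes) moved the other way, from 7.59, 7.37 and 7.20 to 6.26, 5.99 and 5.83, a difference of −1.36 ± 0.13 (adjusted p = 0.000466). TLR3 was not tested with probes above background on all arrays, and its difference ranged from −1.44 to −0.71 over the alternatives. SP110 and GBP2, both induced by interferon, were also among the 4 falls, by 0.42 and 0.34 (adjusted p = 0.0165 and 0.011). The 14 rises became 6, 11 and 5 without replicates 1, 2 and 3, and 9 without cntrl replicate 1 or sirnaAGO2+mimic145 replicate 3. Of 37 cytokine genes and targets of NF-kappaB or STAT3, 7 rose (18.9%, against 8.57% of all genes) and 5 fell (13.5%, against 10.5%). STAT3 itself went from 8.69, 8.62 and 8.81 to 9.61, 9.47 and 9.72, a difference of 0.89 ± 0.08 on 26 probes (adjusted p = 0.00032), and lay 0.89 above sirnaAGO2 (adjusted p = 0.00157) and 0.05 from mimic145. IL11 (a cytokine of the interleukin 6 family) rose by 0.76 ± 0.11 (adjusted p = 0.00262). The 5 probes of IL11 disagreed, from −0.14 to 2.98 with 1 lower, and its smallest rise over the alternatives was 0.38. LCN2 (lipocalin 2) fell by 1.00 ± 0.11 (adjusted p = 0.000997) and lay above mimic145 and below sirnaAGO2 by 0.52 and 0.53 (adjusted p = 0.0406 and 0.0334, passed in 5 and 6 of 10 alternatives).

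Of 48 genes of DNA replication 7 fell (14.6%, against 10.5% of all genes) and 0 rose, and of 53 genes of mitosis 9 rose (17.0%, against 8.57%) and 1 fell. The difference between these lists was not tested. RFC1 (the large subunit of the clamp loader) fell by 0.76 ± 0.09 (adjusted p = 0.00118), from 9.44, 9.23 and 9.68 to 8.75, 8.60 and 8.73, and POLA1, POLE2 and PRIM2 (polymerase and primase subunits) by 0.64, 0.45 and 0.45 (adjusted p = 0.0253, 0.0306 and 0.041). CEP55 (of cytokinesis), SPC25 (of the kinetochore), AURKA (the Aurora A kinase) and CDC20 (an activator of anaphase) rose by 0.59, 0.58, 0.47 and 0.42 (adjusted p = 0.0125, 0.00594, 0.0121 and 0.0125). None of these 8 was distinguished from either single treatment. The 7 replication falls became 2, 1 and 1 and the 9 mitotic rises 0, 2 and 4 without replicates 1, 2 and 3. Single arrays were enough to move them, with 1 replication fall left without cntrl replicate 2 or 3 or sirnaAGO2+mimic145 replicate 2 or 3 and 3 without cntrl replicate 1, and with 2 mitotic rises left without cntrl replicate 1 and 4 without sirnaAGO2+mimic145 replicate 3.

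Of 30 cyclins, kinases, inhibitors and pocket proteins, 6 rose (20%, against 8.57% of all genes) and 1 (CCNE1, cyclin E1) fell. RB1 (the retinoblastoma protein), CDKN2D, CCNB2 and CDKN2C rose by 0.44, 0.38, 0.37 and 0.37, and except for CCNB2 their groups of arrays overlapped. These rises became 0, 1 and 0 without replicates 1, 2 and 3, and 0 to 3 without any of cntrl replicates 1 to 3 or sirnaAGO2+mimic145 replicates 1 and 3.

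Some cytosolic ribosomal protein genes fell by small amounts. Of 86 measured, 24 fell (27.9%, against 10.5% of all genes), 0 rose and 62 did not pass, and the median was −0.16 against 0.01 for all genes. RPL21 (a protein of the large subunit) read 14.41, 14.30 and 14.47 in cntrl against 13.95, 13.72 and 13.96, a difference of −0.52 ± 0.07 (adjusted p = 0.00235). The count depended on arrays and scaling: it was 51 with 75th percentile scaling, 1, 4 and 1 without replicates 1, 2 and 3, and 6 to 12 without any single array of the groups compared. These genes have many processed pseudogenes, whose signal the probes may share.

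Of 77 mitochondrial ribosomal protein genes, 9 rose (11.7%, against 8.57% of all genes) and 7 fell (9.09%, against 10.5%). MRPS18B (of the small mitochondrial subunit) changed from 10.40, 10.49 and 10.40 to 9.23, 9.53 and 9.06, a difference of −1.16 ± 0.08 (adjusted p = 0.000163), below mimic145 by 0.41 (adjusted p = 0.0263) and below sirnaAGO2 by 0.69 (adjusted p = 0.00542), which passed in 5 and 8 of 10 alternatives. Of 74 genes of the respiratory chain and ATP synthase, 12 fell (16.2%) and 3 rose (4.05%). NDUFB5 (a complex I subunit) fell by 0.55 ± 0.06 (adjusted p = 0.000936) and lay above mimic145 and below sirnaAGO2 by 0.50 and 0.40, whereas NDUFA6 (of the same complex) rose by 0.81 ± 0.11 (adjusted p = 0.00171). The 12 falls became 20 with 75th percentile scaling, 1, 3 and 1 without replicates 1, 2 and 3, and 4 to 6 without any of cntrl replicates 1, 2 and 3 and sirnaAGO2+mimic145 replicates 2 and 3.

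Of 11 RNA polymerase III subunits, POLR3GL fell from 9.86, 9.80 and 9.51 to 7.97, 8.44 and 8.37, a difference of −1.46 ± 0.14 (adjusted p = 0.000509), and POLR3E rose by 0.36. POLR3GL lay 1.12 below mimic145 (adjusted p = 0.0069) and 0.05 above sirnaAGO2 (adjusted p = 0.849). Of 58 RAB GTPases of vesicle traffic, 7 rose (12.1%, against 8.57% of all genes) and 5 fell (8.62%, against 10.5%). RAB8B rose by 0.92 ± 0.09 (adjusted p = 0.000549), RAB31 fell by 0.53 and RAB7A (of late endosomes) by 0.48, with RAB7A 0.45 above mimic145 and 0.50 below sirnaAGO2 (adjusted p = 0.0256 and 0.0172, passed in 5 and 6 of 10 alternatives). RAB38 read 0.58 lower by the mean of its 3 probes and 0.020 higher by their median. The 7 RAB rises became 1 without any replicate number or cntrl replicate 1 and 2 without cntrl replicate 3 or sirnaAGO2+mimic145 replicate 3. The 9 rises of mitochondrial ribosomal protein genes became 1, 2 and 1 without replicates 1, 2 and 3, and 2 to 4 without any single array.

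Of 55 genes of RAS-MAPK and growth factor signalling, 11 rose (20%, against 8.57% of all genes) and 5 fell (9.09%, against 10.5%), and 6 of the rises were among 19 feedback genes and targets. EGR1 (an immediate early transcription factor, 2 probes) read 8.61, 7.68 and 8.67 in cntrl and 10.74, 8.84 and 10.89 after both treatments, a difference of 1.84 ± 0.26 (adjusted p = 0.0022), with replicate 2 low in both groups. SPRY2 (a feedback inhibitor of the pathway, 2 probes) fell by 0.78 ± 0.17 (adjusted p = 0.0146). Of 33 genes of the TGF-beta pathway 2 rose (6.06%, against 8.57% of all genes) and 3 fell (9.09%, against 10.5%), near the shares of all genes. The largest of these was BMP4 (a ligand of the family), from 10.40, 10.31 and 10.15 to 9.85, 9.78 and 9.67 (−0.52 ± 0.07, adjusted p = 0.00142). Of 37 proteasome subunits 5 rose (13.5%) and 3 fell (8.11%), against the same shares of all genes. The largest of these was PSMD7 (0.45), and 0 rises were left without replicate 1 or 3 or cntrl replicate 1 or 3. Without replicates 1, 2 and 3 the 11 RAS-MAPK rises became 6, 8 and 4 and the 7 cytokine rises 4, 5 and 3.

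**Figure D5:**
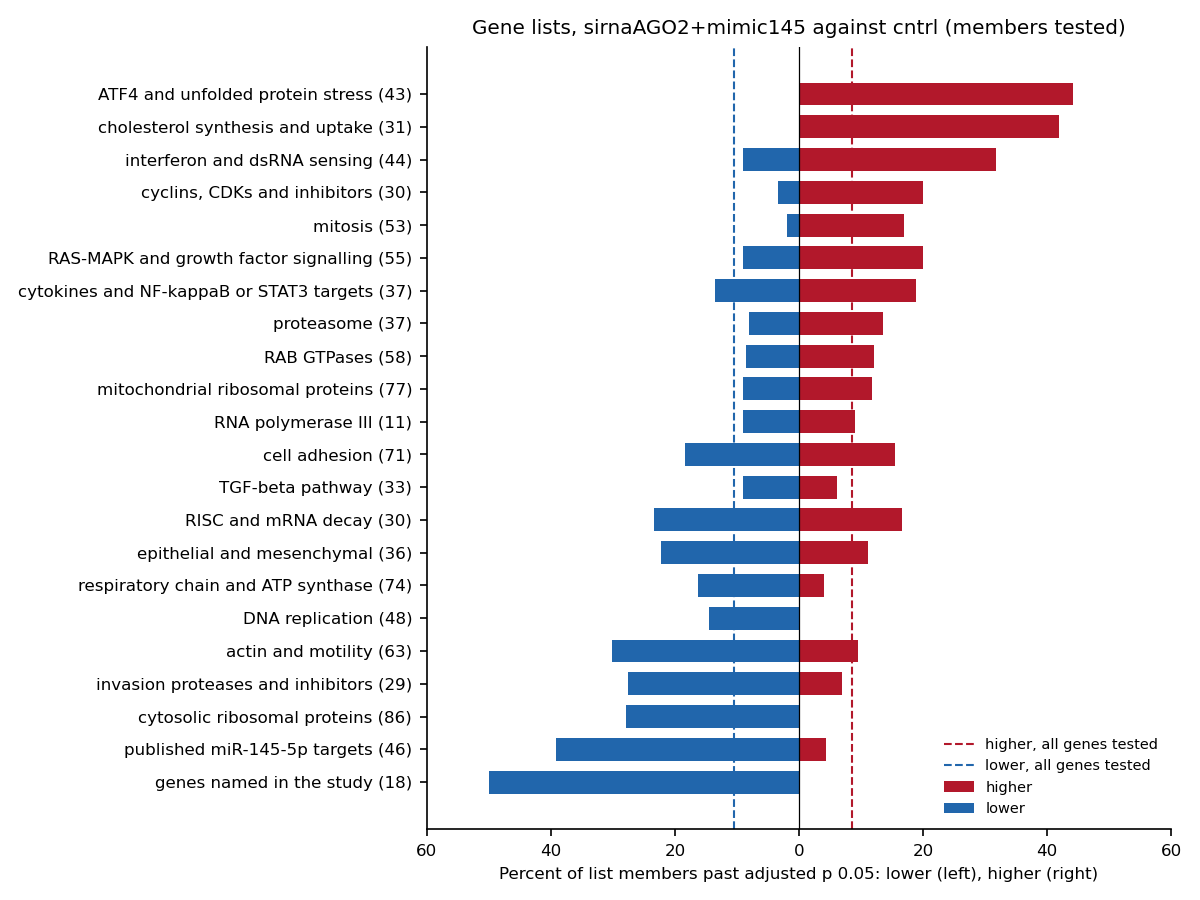
Percent of the members of 22 gene lists (y axis, members tested in parentheses) that were lower (blue, left) or higher (red, right) in sirnaAGO2+mimic145 than in cntrl at an adjusted p of 0.05. Dashed lines mark all genes tested, 10.5% lower and 8.57% higher; 44.2% of unfolded protein stress genes were higher and 30.2% of actin genes were lower.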

How the data were processed

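Cellular RNA was hybridised by the authors to SurePrint G3 Human Exon 2x400K arrays with a single dye, and images were read with Agilent Feature Extraction 10.7.3.1 (file headers). The authors deposited, per array, a background- and trend-adjusted spot intensity that had not been scaled to other arrays. Their log2 values of 217027 probes, deposited after flooring and quantile normalisation, served as an alternative.

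Groups and replicate numbers came from the sample labels, and the members and gene lists were chosen with earlier results of these data known. Spot intensities, without control and outlier spots, were floored at 1, quantile normalised over the 12 arrays, log2 transformed and averaged per probe. Transcript accessions and RefSeq symbols gave 209671 of 233164 probes (89.9%) a gene, 20708 genes in all. A probe was used where a whole group of 3 arrays had it well above background, which left 18253 genes with a median of 5 probes (2835 with 1). The number of arrays limits the precision, with a median SE of 0.10 for a log2 difference.

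The 4 groups and a replicate-number block were fitted over 12 arrays with lmFit and eBayes (limma 3.58.1, R 4.3.3). Two-sided p-values received Benjamini-Hochberg adjustment across the 18253 genes, with a threshold of 0.05. The block follows the paired test in the study's methods and the numbers in the labels. Deviations of same-numbered arrays from their group means correlated at 0.148 to 0.576 over 18 pairs of arrays, and those of different numbers at −0.497 to 0.201. Because deviations cancel within a group, these ranges are not independent. The lowest same-number value, 0.148, was that of replicate 1 of the groups compared here. The steps were tested on simulated data. No test was made over a gene list. Genes named were AGO1 to AGO4, the 10 largest rises and falls on at least 3 probes that moved alike in all 3 pairs, the genes named in the study, up to 4 of each list with the largest differences past the threshold, and genes past the threshold for departure from additivity. Others were named after their values were seen, and single results for some genes are not reported here. Alternatives changed the background correction, scaling, probe filter and summary, block, trend, arrays and thresholds. Promoters and figures were made with Python 3.11.15, pandas 2.3.3 and matplotlib 3.10.9.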

Additional observations from a re-analysis of the deposited data

Results flagged for a closer look

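SAA2-SAA4 (a readthrough transcript of serum amyloid A genes, 2 probes) differed after both treatments from the sum of its differences after each alone, by limma's test of the departure. It read 8.31, 8.20 and 8.90 in cntrl, 6.48, 6.60 and 7.18 in mimic145, 8.05, 8.14 and 8.74 in sirnaAGO2 and 7.54, 7.33 and 8.15 in sirnaAGO2+mimic145. The departure was 1.08 ± 0.11 (SE; adjusted p = 0.035), with differences from cntrl of −1.72 with the mimic alone, −0.16 with silencing alone and −0.80 after both. The doubly treated arrays lay 0.92 above mimic145 (adjusted p = 0.00146) and 0.64 below sirnaAGO2 (adjusted p = 0.00587). Its probes may share signal with the SAA genes it spans. The departure passed in 6 of 10 alternatives and kept its direction in all, and it did not pass without any of the 3 replicate numbers.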

How the results depend on the processing

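The number of genes that differed between sirnaAGO2+mimic145 and cntrl, 3483, ranged from 2802 to 4637 over other normalisations, filters, probe summaries and the intensity trend, and was 3728 with slide as a random block (correlation −0.239). It was 1236 with no replicate block, 1223 with slide as a random block and no replicate block (an alternative chosen after seeing the data), 746 with only the 6 arrays compared, 1291 at an adjusted p of 0.01, 1246 with a log2 difference over 0.5, and 1 (DSP) by the methods' paired t-test after adjustment, against 3263 unadjusted. Leaving out arrays gave 715 to 3123. AGO2 stayed lower, with −0.87 to −0.70 over left-out arrays, but the methods' t-test missed the threshold (−0.78, adjusted p = 0.224). The 788 genes against mimic145 became 1185 with normexp, 1390 with probes above background on all arrays, 357 with the median over probes, 100 with no replicate block and 0 to 12 without a replicate number (0 without replicate 3, with 3397 at an unadjusted p under 0.05). The 1328 against sirnaAGO2 became 2394 with 75th percentile scaling, 2192 with normexp, 2033 in the authors' table, 2091 with probes above background on all arrays, 78 with no replicate block and 0 to 384 without a replicate number (0 without replicates 2 and 3, with 2826 and 3505 unadjusted). The 2 departures from additivity became 150, 33, 5 and 291 with normexp, the authors' table, no filter and probes above background on all arrays, and 0 by limma with no replicate block (1381 unadjusted) and without replicates 1, 2 and 3 (1782, 2027 and 2733 unadjusted). The counts over gene lists, 287 in all, fell to 116 with no replicate block, 81 with the 6 arrays, 115 with the slide block alone and 77 to 229 over left-out arrays.

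Of 108 named genes past the threshold, 50 passed in every limma alternative in which they were tested, 61 to 108 in each, and all but RAB38 (0.020 with the median over probes) kept their sign. Signs turned for ABCD4 (0.0036 with 75th percentile scaling, 0.0099 with probes above background on all arrays), for AGO4 (−0.11 with no filter, −0.021 with the median over probes, −0.022 to 0.032 over left-out arrays) and for DOCK9 (−0.13 to 0.020 over left-out arrays). The causes were not tested. Dim probes limit falls, since signals near background cannot drop further.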

Other observations

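Class II antigen presentation genes, examined after HLA-DRA was seen among the largest falls, were lower in doubly treated cells. Of 18 genes measured, 13 fell (against 10.5% of all genes), 0 rose (against 8.57%) and 5 did not pass, and the median difference was −0.79. HLA-DQB1 and HLA-DPB1 (chains of the HLA-DQ and HLA-DP molecules) differed by −1.30 ± 0.14 and −0.96 ± 0.10 (adjusted p = 0.000783 and 0.00056), CD74 (the invariant chain) by −0.77 ± 0.11 (adjusted p = 0.00218) and HLA-DMA (a peptide-exchange chaperone) by −0.67 ± 0.09 (adjusted p = 0.00164). CIITA (the transcriptional master regulator of the class) differed by −0.22 and did not pass (adjusted p = 0.0747). The median was −0.88 with the mimic alone and −0.65 with silencing alone, and between 10 and 15 genes fell in the alternatives. The HLA-DR beta genes are near-identical, and probes may share their signal.

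Metallothioneins (small zinc- and copper-binding proteins) were also examined after their values were seen. They showed 10 falls among 13 genes (against 10.5% of all genes), 0 rises (against 8.57%) and a median of −0.58. MT1F differed by −0.99 ± 0.11 (adjusted p = 0.000881) and MT1M by −1.01 ± 0.15 (adjusted p = 0.00246). MT1F was 1.65 lower with the mimic alone and 0.16 lower with silencing alone, and after both treatments it lay above mimic145 (adjusted p = 0.0167) and below sirnaAGO2 (adjusted p = 0.0089). The number of falls was 7, 5 and 6 without replicates 1, 2 and 3. These genes are close paralogs on 1 to 3 probes each.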
